A study of Homo sapiens with 6 samples.

Results

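The genes followed here handle vitamin A inside the cell: 10 genes of retinoid metabolism and retinoid receptors, of 18358 genes in the deposited table. They are ALDH1A1, ALDH1A3, RDH10, DHRS9, DHRS3, CRABP2, RARA, RARG, RXRA and CYP26B1, and they were picked because ALDH1A1 was much higher in one group, so the differences of the members between the groups are given as descriptions without p-values. All 10 were found and all 10 passed the filter on low counts. The cells were ME180, an established human line of cervical epidermoid carcinoma. In 3 libraries the cells carried the empty vector, and in 3 they carried sgVPS13C, a guide construct against VPS13C that the genotype label calls a knockout. VPS13C is a protein that moves lipids between membranes at contact sites. Both groups were exposed to 2 µM cisplatin for 48 h, so every difference is one between cisplatin-treated populations, and untreated cells were not analysed here. The labels do not say whether replicates were separate cultures or whether the edited cells were a clone, so the errors and p-values cover no more than the variation among these samples, possibly technical.

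Retinol is oxidised in a reversible step to retinaldehyde and then, in an irreversible step, to retinoic acid, which binds nuclear receptors. The receptors, RAR proteins paired with RXR proteins, sit on direct repeats of a short motif and switch target genes on when retinoic acid is bound. CYP26 enzymes break retinoic acid down. In stratified squamous epithelia, retinoic acid is known for holding back terminal differentiation and cornification.

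Total counts per library ran from 14774065 to 15799149. VPS13C had 48.1, 30.1 and 35.03 CPM (counts scaled to the size of the library) in vector replicates 1 to 3 and 28.6, 18.6 and 23.7 CPM in sgVPS13C replicates 1 to 3. Its log2 fold change (± SE) was −0.67 ± 0.22, short of the threshold of 0.05 (edgeR quasi-likelihood adjusted p = 0.0513), although it passed under 8 of 17 alternative settings. GSTP1, the glutathione transferase of the study's title, differed by a log2 fold change of 0.39 ± 0.24 (edgeR quasi-likelihood adjusted p = 0.266). It was not called in the main fit but was called higher under 3 of the 17 alternative settings. All 6 squamous markers checked were expressed, with a summed level of 6140 to 6476 TPM (the abundance scale that also corrects for length) in the vector libraries and 11184 to 12577 TPM in the sgVPS13C libraries. Glandular markers summed to 2569 to 2707 TPM and 1259 to 1388 TPM, nearly all of it KRT8 and KRT18, which were both called lower. Of the other glandular markers MUC16 was called higher, at 6.26 and 9.11 CPM, PAX8 was not called, and MUC5B was under 1 TPM in every library. Of 6 markers of retina and retinal pigment epithelium, a site that the labels name for this line, 5 were under 1 TPM in every library and RPE65 was at 0. The other, BEST1, had means of 8.50 TPM in the vector and 6.17 TPM in the sgVPS13C libraries and was not called. Fibroblast markers summed to at most 14.95 TPM, with 3 of 5 under 1 TPM, and endothelial markers to at most 4.74 TPM. Among them DCN (0.188 CPM in the vector and 3.78 CPM in the sgVPS13C libraries) and VWF (5.68 and 22.6 CPM) were called higher. CDH5 was called lower (2.27 and 0.152 CPM). Of the immune markers CD68 made up nearly all of a sum of 36.0 to 82.0 TPM, and MS4A1 was at 0. CD68 was called lower, at 78.5 CPM in the vector and 43.4 CPM in the sgVPS13C libraries. In bulk RNA, fewer cells of a kind and less RNA per cell cannot be told apart, and the part of the marker shifts in the values below was not tested. Within a group, long and short genes deviated in opposite directions from library to library. Across 13008 genes, the Spearman correlation of these deviations with gene length was 0.59 for vector replicate 1, −0.57 for replicate 2 and −0.40 for replicate 3, and 0.63, −0.60 and 0.31 for the sgVPS13C replicates in the same order.

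Of the 10 members, 4 were called higher (ALDH1A1, CRABP2, RARG and RXRA) and 3 lower (ALDH1A3, RDH10 and DHRS9) in the sgVPS13C libraries at an adjusted p under 0.05 (edgeR quasi-likelihood test over all genes). Over the 13717 genes tested, 17.8% were called higher and 17.4% lower, 35.1% in all. Libraries of the groups did not overlap in CPM for 8 members, all but DHRS3 and RARA, while they did not overlap for 48.5% of all tested genes. The median log2 fold change of the members was −0.14, beside 0.0042 for all tested genes. Nothing is read from these counts, since the members were chosen on this comparison.

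**Figure D1:**
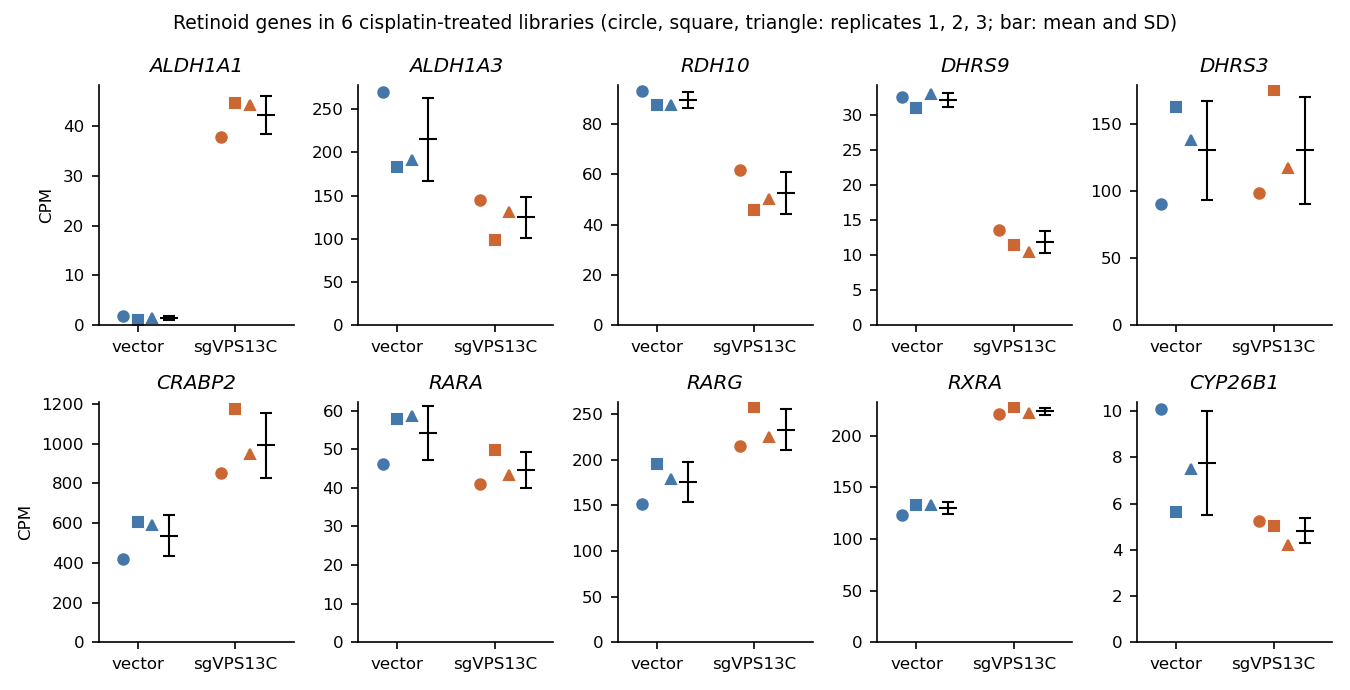
CPM of the 10 retinoid genes in each of the 6 libraries, with the group mean and SD as the black bar (n = 3); each axis starts at 0. ALDH1A1 lies between 1.10 and 1.79 CPM in the vector libraries and between 37.8 and 44.7 CPM in the sgVPS13C libraries, while DHRS3 and RARA overlap between the groups.

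Per length the members spanned a wide range of levels. In the vector libraries CRABP2 came first at 1059 ± 82.4 TPM, followed by DHRS3 at 153 ± 31.2, RARG at 103 ± 1.5998 and ALDH1A3 at 100.5 ± 34.1 TPM (SD, n = 3). DHRS9 at 35.3 ± 5.20, RXRA at 35.1 ± 3.12 and RDH10 at 34.9 ± 5.97 TPM could not be ordered beyond their spread, and neither could ALDH1A3 and RARG or ALDH1A3 and DHRS3. RARA at 23.7 ± 1.10, CYP26B1 at 2.83 ± 1.23 and ALDH1A1 at 1.17 ± 0.421 TPM closed the order. In the sgVPS13C libraries CRABP2, DHRS3 and RARG again led, at 1945 ± 15.6, 152 ± 28.4 and 137 ± 5.33 TPM, the last pair within their spread. Then came RXRA at 60.1 ± 8.05 and ALDH1A3 at 58.0 ± 18.2, not apart beyond their spread, and ALDH1A1 at 32.6 ± 3.14 TPM. RDH10 at 20.6 ± 6.15, RARA at 19.5 ± 1.30 and DHRS9 at 12.8 ± 3.25 TPM followed, RDH10 apart from neither of the others beyond its spread, with CYP26B1 lowest at 1.74 ± 0.338 TPM.

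ALDH1A1 and ALDH1A3 encode retinaldehyde dehydrogenases, which make retinoic acid from retinaldehyde, and they lay on opposite sides. ALDH1A1 (gene 216, GRCh38 chromosome 9, 72900671 to 72953053, minus strand) had 30, 17 and 24 counts in vector replicates 1 to 3 and 576, 631 and 684 counts in sgVPS13C replicates 1 to 3. In CPM these were 1.79, 1.10 and 1.52 against 37.8, 44.7 and 44.2. The vector libraries were all low and the sgVPS13C libraries all high, with a wide gap between the groups. The means were 1.47 ± 0.349 and 42.3 ± 3.84 CPM (SD, n = 3 each), which is 4.83 ± 0.18 (SE) on the log2 scale. Of the 13717 genes tested, 9 had a larger log2 fold change. Near the start of the gene lay the following 300 bases of GRCh38 (RefSeq, chr9:72953004-72953303, minus strand, 5′ to 3′), shown because the members were picked for this gene, with a CCAAT motif in capitals that begins 74 bases before the start site.

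ALDH1A1: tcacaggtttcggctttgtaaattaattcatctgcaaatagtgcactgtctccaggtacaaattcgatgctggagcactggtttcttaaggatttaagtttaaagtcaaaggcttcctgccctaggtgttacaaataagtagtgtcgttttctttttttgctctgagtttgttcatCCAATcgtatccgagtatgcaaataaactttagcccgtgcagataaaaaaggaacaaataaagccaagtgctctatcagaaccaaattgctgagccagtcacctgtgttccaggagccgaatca

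ALDH1A3 (gene 220, chromosome 15, 100879831 to 100916626, plus strand) was the more abundant dehydrogenase of the pair in every library. It had 270, 183 and 192 CPM in the vector libraries, against 145, 98.4 and 131 CPM in the sgVPS13C libraries. All sgVPS13C libraries lay below all vector libraries, but replicate 1 was the highest of each group and vector replicate 1 stood well above the other two. The log2 fold change (± SE) was −0.78 ± 0.20, and the call was lost without sgVPS13C replicate 3 (log2 fold change −0.83). Its promoter window (chr15:100879581-100879880, plus strand) is shown for comparison with that of ALDH1A1, again with CCAAT in capitals, here from 71 bases before the start site.

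ALDH1A3: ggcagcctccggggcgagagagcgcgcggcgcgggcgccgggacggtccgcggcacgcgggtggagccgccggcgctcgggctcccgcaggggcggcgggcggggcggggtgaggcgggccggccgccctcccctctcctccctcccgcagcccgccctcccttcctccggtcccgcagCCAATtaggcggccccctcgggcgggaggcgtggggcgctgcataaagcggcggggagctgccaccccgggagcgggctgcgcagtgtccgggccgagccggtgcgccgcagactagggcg

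The 2 windows differ in base composition. That of ALDH1A1 has 40.3% G and C and 7 CpG dinucleotides, and that of ALDH1A3 has 81.7% and 46, beside medians of 58.7% and 14 over 35097 RefSeq windows of the same length. CCAAT, searched on both strands, occurs in 34.6% of these windows, and a match is a description, not a site.

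Per length, the levels of the 2 enzymes lay closer together in the sgVPS13C libraries. The summed level of ALDH1A1 and ALDH1A3 was 141, 76.8 and 87.1 TPM in vector replicates 1 to 3 and 108, 67.6 and 96.7 TPM in sgVPS13C replicates 1 to 3. On the TPM scale the sums overlapped between the groups, with means of 102 ± 34.5 and 90.6 ± 20.7 TPM (SD, n = 3 each). The overlap is one of that scale only, and an unchanged total cannot be read from it. ALDH1A1 made up 1.14%, 1.003% and 1.31% of the sum in the vector libraries and 31.0%, 43.2% and 36.6% in the sgVPS13C libraries. ALDH1A2, the third enzyme of this kind, had at most 2 counts in any library.

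**Figure D2:**
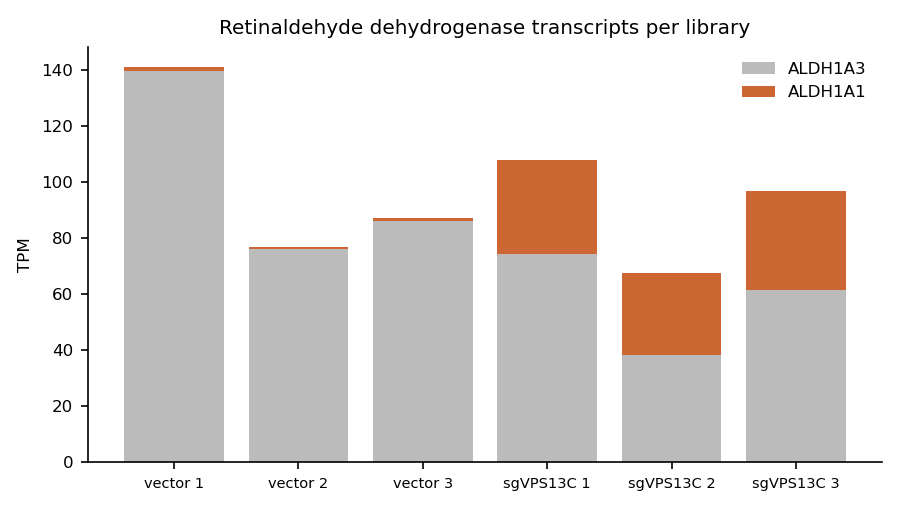
TPM of ALDH1A3 (grey) and ALDH1A1 (orange) stacked for each library, with the axis starting at 0. The height of the bars overlaps between the groups, from 76.8 to 141 TPM and from 67.6 to 108 TPM, while the ALDH1A1 part is a thin line in the vector libraries and 31.0% to 43.2% of the bar in the sgVPS13C libraries.

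The step before, between retinol and retinaldehyde, is run by RDH10 and DHRS9 in the direction of retinaldehyde and by DHRS3 in the direction of retinol. RDH10 (gene 157506, chromosome 8, 73294602 to 73325281), the main retinol dehydrogenase of the embryo in mice, had 93.3, 87.8 and 87.5 CPM in the vector libraries, against 61.8, 45.8 and 50.2 CPM in the sgVPS13C libraries. The vector libraries lay close together and above all sgVPS13C libraries, and the log2 fold change (± SE) was −0.77 ± 0.13. DHRS9 (gene 10170, chromosome 2, 169067077 to 169096167) had 32.6, 31.0 and 32.9 CPM in the vector libraries, against 13.6, 11.5 and 10.5 CPM in the sgVPS13C libraries. It was the member with the lowest log2 fold change, −1.44 ± 0.13 (SE), and again no library of one group reached the other. DHRS3 (gene 9249, chromosome 1, 12567910 to 12618210), which returns retinaldehyde to retinol and is itself induced by retinoic acid, had 90.6, 163 and 138 CPM in the vector libraries, against 98.6, 175 and 117 CPM in the sgVPS13C libraries. The groups overlapped over most of their range, and the means of 131 ± 36.8 and 131 ± 40.1 CPM (SD, n = 3 each) left a difference of −0.0014 ± 0.27 (SE) on the log2 scale. Replicate 2 was the highest library of each group for DHRS3.

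CRABP2, the cytosolic protein that carries retinoic acid to the receptors, was the most abundant member per length. CRABP2 (gene 1382, chromosome 1, 156699606 to 156705784) had 970, 1076 and 1132 TPM in the vector libraries and 1929, 1960 and 1946 TPM in the sgVPS13C libraries. On the TPM scale the sgVPS13C libraries agreed closely and lay well above the vector libraries. In CPM the values were 421, 604 and 589 against 854, 1173 and 947, and the log2 fold change from the counts was 0.88 with a standard error of 0.19.

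Among the receptors, RARG and RXRA were higher and RARA was not called. RARG (gene 5916, chromosome 12, 53210569 to 53232209), the RAR that predominates in skin keratinocytes, had 152, 195 and 179 CPM in the vector libraries, against 215, 258 and 225 CPM in the sgVPS13C libraries. The groups did not overlap but came close, and the log2 fold change (± SE) was 0.41 ± 0.13. The call of RARG was lost without vector replicate 1 or 3 and without sgVPS13C replicate 1, 2 or 3, at log2 fold changes of 0.31, 0.42, 0.45, 0.33 and 0.42. RXRA (gene 6256, chromosome 9, 134326455 to 134440585), the shared partner of RARs and other nuclear receptors, had 123, 133 and 133 CPM in the vector libraries, against 221, 228 and 221 CPM in the sgVPS13C libraries. The spread within each group was small beside the gap between them, and the log2 fold change (± SE) was 0.78 ± 0.085. RARA (gene 5914, chromosome 17, 40309180 to 40357643) had 46.0, 57.7 and 58.7 CPM in the vector libraries, against 40.9, 49.8 and 43.3 CPM in the sgVPS13C libraries. Here sgVPS13C replicate 2 lay above vector replicate 1, and the log2 fold change (± SE) was −0.28 ± 0.14. RARA was called lower without vector replicate 1 (log2 fold change −0.39).

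Per length, RARG was the major RAR in every library. RARA and RARG summed to 125, 127 and 127 TPM in the vector libraries and to 163, 150 and 157 TPM in the sgVPS13C libraries. RARA made up 18.9%, 17.8% and 19.5% of that sum in the vector libraries and 12.6%, 12.0% and 12.6% in the sgVPS13C libraries. The shares of the groups did not overlap.

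CYP26B1, which oxidises and clears retinoic acid, had the lowest level per length of the members in the sgVPS13C libraries and the second lowest, after ALDH1A1, in the vector libraries. CYP26B1 (gene 56603, chromosome 2, 72129238 to 72147862) had 10.1, 5.64 and 7.49 CPM in the vector libraries, against 5.26, 5.03 and 4.20 CPM in the sgVPS13C libraries. The gap between the groups was narrow, from 5.26 to 5.64 CPM, and vector replicate 1 was the highest library. At −0.68 ± 0.23 (SE) on the log2 scale CYP26B1 was not called, but it was called without vector replicate 2 (log2 fold change −0.87). With each library's trend on gene length removed CYP26B1 was called as well, at a log2 fold change of −0.69.

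The share of a gene's reads on each transcript was not what the members were chosen on, and it was tested. ALDH1A1 and RDH10 each have a single transcript in the deposited table, and the other 8 members could be tested. None passed the threshold (edgeR diffSpliceDGE with the Simes method, lowest adjusted p 0.127), against 0.243% of the 9062 genes tested, and at an unadjusted p under 0.05 there were 2, DHRS9 and RARG, beside 3.21% of all genes tested. In DHRS9, NM_001376924.1 held 92.3%, 84.5% and 65.2% of the estimated counts in the vector libraries and 93.8%, 96.7% and 93.7% in the sgVPS13C libraries. NM_001142271.2 held 3.30%, 11.5% and 30.2% in the vector libraries and was at 0 in the sgVPS13C libraries. In ALDH1A3, NM_000693.4 held 96.1%, 61.9% and 61.9% in the vector libraries and 84.9%, 61.2% and 77.9% in the sgVPS13C libraries, so that the spread within a group covered the difference between groups. In CYP26B1, NM_019885.3 held 34.7%, 56.1% and 41.4% in the vector libraries and 0%, 13.8% and 0% in the sgVPS13C libraries. This rests on 48.8 to 58.6 estimated counts against at most 9.81. XM_005264433.4 of the same gene, left out of the test by the filter on low counts, held 0% in each vector library. In the sgVPS13C libraries it held 39.7%, 0% and 32.6%. CRABP2 and RXRA were almost wholly of 1 transcript, NM_001878.4 with at least 99.6% and NM_002957.6 with at least 93.9% in each library. Reads of 50 bases rarely tell transcripts apart, and on simulated data the test found few changes of usage and called unchanged genes, so these shares are uncertain.

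Each member was also set beside its 40 nearest tested neighbours on the chromosome, as a description of the surroundings, since the members were picked on this same fold change. ALDH1A1 lay above all 40, whose median was 0.08 on the log2 scale, and DHRS9 lay below all 40, with a median of 0.11. CRABP2 lay above 39 of its neighbours and RXRA above 37, with neighbour medians of −0.14 and −0.23. Of the 40 around CRABP2, 3 were called higher and 11 lower, and of those around RXRA 5 and 13. ALDH1A3 lay below 39 of 40 neighbours, whose median was 0.07, and 8 of the 40 were called higher and 5 lower. RARG and RDH10 lay among their neighbours. RARG was above 22 of 40, whose median was 0.39, and 16 of these 40 were called higher and 5 lower. RDH10 lay below 31 of 40, and 13 of the 40 were called lower and 5 higher, with a median of −0.31. CYP26B1 lay below 36 of 40, RARA below 24 and DHRS3 below 26, with neighbour medians of −0.09, −0.11 and 0.08. In the same order, 4, 5 and 9 neighbours were called higher and 9, 13 and 6 lower.

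**Figure D3:**
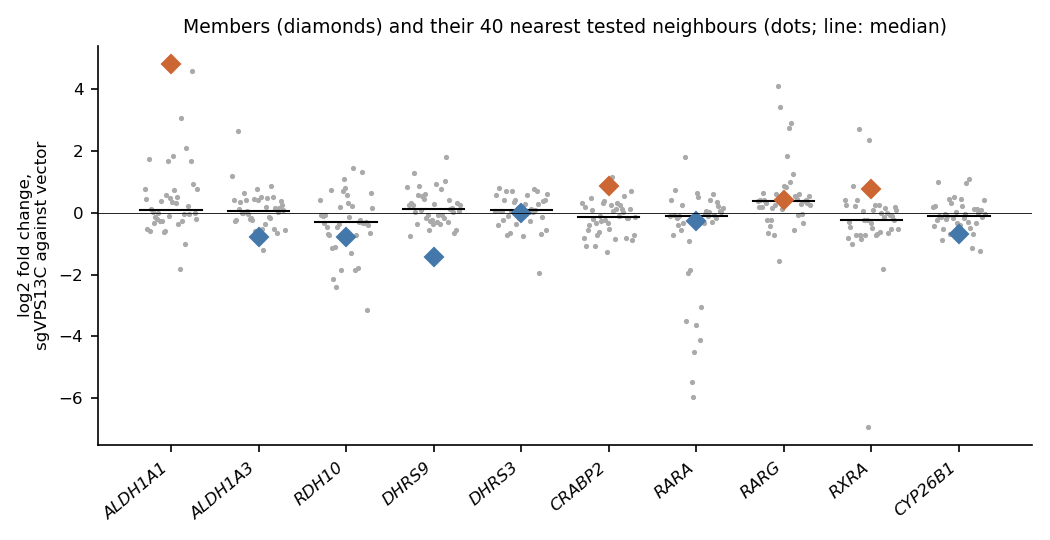
Log2 fold change (sgVPS13C against vector) of each member as a diamond, with its 40 nearest tested genes on the same chromosome as grey dots and their median as a line. ALDH1A1 lies above and DHRS9 below all of its neighbours, while RARG sits close to its neighbours' median of 0.39.

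Genes whose pattern over the 6 libraries was most like that of ALDH1A1 were GPC3, ELSPBP1, AGR2, CLEC7A and PLA2G4F, by the root mean square distance between log2 CPM values centred on the vector mean. GPC3, a cell-surface glypican, was nearest at a distance of 0.28, with a mean of 2.46 CPM in the vector libraries, against 86.5 CPM in the sgVPS13C libraries. PLA2G4F, a phospholipase A2, was farthest of the 5 at 0.45, with 3.56 and 72.7 CPM. AGR2, a protein disulfide isomerase of the endoplasmic reticulum, had 0.670 and 17.9 CPM, and CLEC7A, a lectin receptor, had 0.147 and 5.05 CPM. ELSPBP1 had 0 counts in every vector library and 12, 13 and 19 counts in the sgVPS13C libraries, so its distance rests on few reads. In the vector libraries AGR2 had 10, 11 and 11 counts and CLEC7A 2, 3 and 2, so their distances rest on few reads there as well.

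Other genes, none of them members, were counted from 7 lists with 95 genes in all. The lists together are wider than the pathway, since they include other aldehyde dehydrogenases and genes known to answer retinoic acid. Of the 95 genes, 74 passed the filter on low counts, 26 rose and 12 fell (edgeR quasi-likelihood adjusted p under 0.05), with a median log2 fold change of 0.19. Over all tested genes 17.8% were higher and 17.4% lower, with a median of 0.0042, and the counts of each list below are to be read against these shares. The lists were chosen with earlier results of these data known.

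Of 14 listed genes of retinol uptake, transport and storage 11 were tested, 3 rose and 4 fell, with a median log2 fold change of −0.17. BCO1, which splits beta-carotene into retinaldehyde, rose from 0.397 ± 0.0975 to 5.74 ± 1.03 CPM (log2 fold change 3.83, edgeR quasi-likelihood adjusted p = 1.04e-04). With 6, 5 and 8 counts in the vector libraries, the rise of BCO1 starts from few reads. RBP4, the serum carrier of retinol, fell from 3.90 ± 0.676 to 0.154 ± 0.0720 CPM (SD, n = 3), which was 53, 62 and 71 counts against 3, 1 and 3 counts. RBP7, a cellular retinol-binding protein, fell from 5.66 ± 0.758 to 1.47 ± 0.300 CPM. LRAT, which stores retinol as its ester, fell from 2.88 ± 0.242 to 0.870 ± 0.279 CPM (SD, n = 3), a log2 fold change of −1.72 with adjusted p = 0.00221 by edgeR's quasi-likelihood test. STRA6, the cell-surface receptor for retinol bound to RBP4, had 1.21 ± 0.142 and 1.07 ± 0.260 CPM and did not pass (log2 fold change −0.18, edgeR quasi-likelihood adjusted p = 0.648). The number that rose was 1 without sgVPS13C replicate 3.

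The other oxidoreductases of retinol and retinaldehyde were higher or not called. Of 19 listed genes 13 were tested, 6 rose and 0 fell, with a median of 0.21. The number that rose was 3 with at least 10 CPM in 3 libraries, where fewer genes were tested. At an unadjusted p under 0.05 the number lower was 1, RDH13 at a log2 fold change of −0.27, named after its value was seen. DESeq2 called 0 lower and limma on log2(FPKM + 1) called 1. AKR1B10, an aldo-keto reductase that turns retinaldehyde back into retinol, had 7.53, 5.96 and 5.46 CPM in the vector libraries, against 56.8, 61.5 and 68.3 CPM in the sgVPS13C libraries. Its log2 fold change (± SE) was 3.30 ± 0.16 (edgeR quasi-likelihood adjusted p = 3.36e-05). RDH12, a retinaldehyde reductase, rose from 0.899 ± 0.0682 to 4.42 ± 0.308 CPM, and RDH16, which oxidises retinol to retinaldehyde, from 0.734 ± 0.158 to 3.10 ± 0.733 CPM (SD, n = 3). AKR1C3, another aldo-keto reductase, rose from 0.440 ± 0.0754 to 4.49 ± 1.34 CPM. In the vector libraries RDH12 had 14 to 15 counts, RDH16 10 to 14 and AKR1C3 6 to 8, so these rises start from few reads. AKR1B10 and AKR1C3 have close paralogs that can share reads, which makes their split uncertain.

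Of 8 listed genes of retinoic acid synthesis, binding and clearance 3 were tested, and all 3 were called, 1 higher and 2 lower. FABP5, a fatty acid-binding protein that can carry retinoic acid to PPARD, had 40.7, 45.0 and 46.1 CPM in the vector libraries, against 199.6, 256 and 245 CPM in the sgVPS13C libraries. The groups were far apart, 2.41 ± 0.13 (SE) on the log2 scale (edgeR quasi-likelihood adjusted p = 4.85e-05). Per length FABP5 stayed below CRABP2, at 788 ± 68.2 against 1945 ± 15.6 TPM in the sgVPS13C libraries (SD, n = 3). CYP26A1, the CYP26 enzyme that retinoic acid induces most directly, had 9.39, 9.66 and 8.82 CPM in the vector libraries, against 4.66, 4.40 and 4.91 CPM in the sgVPS13C libraries. It fell by 0.99 ± 0.12 (SE) on the log2 scale (edgeR quasi-likelihood adjusted p = 0.00103). AOX1, an aldehyde oxidase that can oxidise retinaldehyde, fell from 7.19 ± 1.31 to 2.04 ± 0.520 CPM. CRABP1, the sister of CRABP2, had at most 4 counts in a library.

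Among other receptors and coregulators, 4 of 18 tested genes rose and 2 fell, with a median of −0.03. PPARD, a receptor that binds fatty acids, rose from 98.6 ± 4.73 to 131 ± 2.01 CPM (SD, n = 3). NR2F1 and NR2F2, orphan receptors that can bind the same repeats, both fell, NR2F1 from 7.73 ± 0.508 to 2.43 ± 0.216 CPM and NR2F2 from 52.0 ± 8.07 to 22.7 ± 2.28 CPM. RXRB had 26.4 ± 0.877 and 23.5 ± 0.504 CPM and did not pass (edgeR quasi-likelihood adjusted p = 0.210). The number that rose was 2 without vector replicate 3 and also without sgVPS13C replicate 3.

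The first genes to answer retinoic acid in many cells carry a pair of receptor motifs 5 bases apart in the promoter, and RARB and CYP26A1 are the textbook examples. Both are shown because they are known for this pair, and neither receptor activity nor retinoic acid was measured here. The motif searched was AGGTCA or one of its variants, namely GGGTCA as well as AGTTCA along with GGTTCA, on both strands, and the capitals mark the 2 motifs in each stretch.

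RARB: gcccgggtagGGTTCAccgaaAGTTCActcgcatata

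CYP26A1: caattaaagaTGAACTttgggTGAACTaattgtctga

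The RARB stretch lies at chr3:25428200-25428236 and the CYP26A1 stretch at chr10:93073793-93073829 of GRCh38 (RefSeq), both on the plus strand, with the repeat of CYP26A1 read on the minus strand. Such a pair occurs in 0.0883% of the 35097 promoter windows, and a single motif in 38.6%. No window of ALDH1A1, ALDH1A3, DHRS3, DHRS9, CRABP2, RARA, RARG, RXRA or CYP26B1 holds the pair, which says only that these letters are not in these windows. RARB had 3.71, 2.20 and 1.84 CPM in the vector libraries, against 2.89, 1.91 and 2.39 CPM in the sgVPS13C libraries. The groups overlapped and RARB did not pass (log2 fold change −0.11, standard error 0.31, edgeR quasi-likelihood adjusted p = 0.815), whereas CYP26A1, given above, fell.

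Of the wider list of genes known to be induced by retinoic acid, 13 of 17 were tested, 2 rose and 4 fell, with a median of −0.11. HBEGF, an EGF-type growth factor, fell from 76.8 ± 2.96 to 29.5 ± 2.80 CPM (SD, n = 3). MEIS1, a homeobox factor, rose from 11.8 ± 1.22 to 22.8 ± 0.704 CPM. The adjusted p was 1.63e-04 for HBEGF and 9.85e-04 for MEIS1 by edgeR's quasi-likelihood test. TGM2, a transglutaminase, had at most 3 counts in a library. The number that rose was 1 without vector replicate 3 and also without sgVPS13C replicate 3.

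Keratinocyte genes known to be lowered by retinoic acid were higher or not called. Of 8 listed genes 7 were tested, 4 rose and 0 fell at an adjusted p under 0.05, and the median was 1.81 on the log2 scale. With the length trend of each library removed, 7 rose. Over all 13717 genes tested, 3212 were then called higher and 3151 lower, against 2440 and 2381 in the main fit. KRT1, a keratin of the spinous layer, rose from 3.15 ± 0.866 to 53.7 ± 8.995 CPM, and its partner KRT10 from 376 ± 38.9 to 1323 ± 75.7 CPM (SD, n = 3). IVL, which encodes the cornified envelope protein involucrin, rose from 39.7 ± 3.24 to 146 ± 13.0 CPM, and KRT2, a keratin of upper layers, from 0.271 ± 0.223 to 3.03 ± 0.916 CPM. With 4, 1 and 8 counts in the vector libraries, the rise of KRT2 starts from few reads. The summed squamous markers given above, mostly KRT5, were also higher, and their part in the rise of these keratinocyte genes was not tested. At an unadjusted p under 0.05 the number lower was also 0, as it was by DESeq2 and by limma.

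Among the other aldehyde dehydrogenases, 6 of 14 tested genes rose and 2 fell, with a median of 0.64. ALDH3B2 rose from 8.57 ± 0.516 to 66.1 ± 7.86 CPM while its neighbour in sequence, ALDH3B1, fell from 12.2 ± 2.02 to 3.94 ± 0.395 CPM (SD, n = 3). ALDH2, the mitochondrial enzyme that clears acetaldehyde, rose from 46.1 ± 5.11 to 104.7 ± 12.0 CPM, and ALDH7A1 from 76.4 ± 5.55 to 137 ± 3.54 CPM. By edgeR's quasi-likelihood test their adjusted p ran from 2.75e-05 to 7.37e-04.

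**Figure D4:**
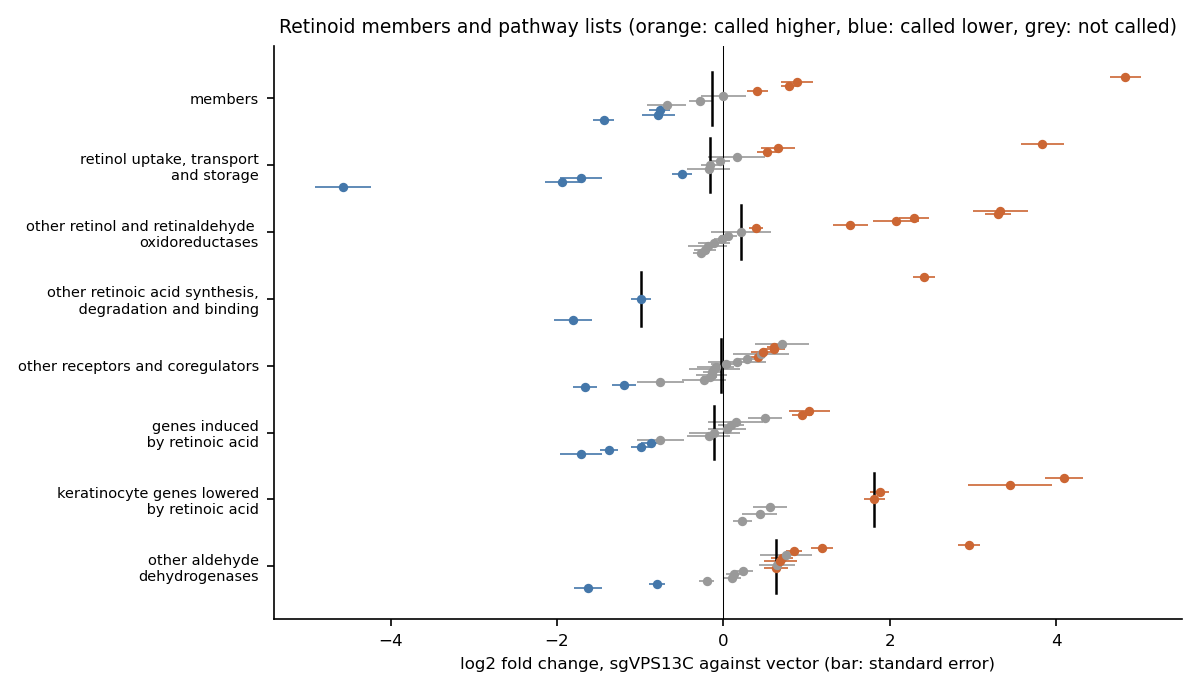
Log2 fold change (sgVPS13C against vector) with its standard error for the members and for each tested gene of the 7 lists. Orange was called higher, blue lower and grey not called at an adjusted p under 0.05, and the black line is the median of the list. The oxidoreductase list has 6 genes called higher and 0 lower, and the list of genes lowered by retinoic acid has 4 and 0.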

How the data were processed

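RNA-seq was analysed for 6 ME180 libraries, 3 with the vector and 3 with sgVPS13C, grouped by the titles' labels. Reads were single-end and 50 bases long per the labels' protocols, and the build was hg38 per the submitters' processing notes. Which aligner and counter were run, and with what strand setting, is not given in the sources used here, so reads of overlapping or antisense genes cannot be told apart. The authors deposited an expected count per gene and per transcript, which can be fractional because shared reads are split, and which was rounded to whole numbers here. The FPKM values deposited by the authors served in the alternatives with limma, with pseudocounts of 1 and 0.1. The TPM values deposited by the authors served for levels compared between genes. The 6 columns of normalized counts and 8 of group means were not used.

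Genes were kept by filterByExpr (minimum count 10) and scaled by TMM, and edgeR 4.0.16 (R 4.3.3) fitted a robust quasi-likelihood model with the groups as its term. P-values were adjusted over 13717 genes by the Benjamini-Hochberg method, with a threshold of 0.05, and CPM used the TMM-scaled totals. The standard error is the size of the log2 fold change divided by the square root of F. The rule for named genes took all members, VPS13C, GSTP1, up to 4 called genes by smallest p and fixed genes of each list, and the 5 genes most like ALDH1A1, for which an offset of 0.5 counts was added before the log. A few genes that this rule names are not reported here. The members and the lists were chosen with earlier results of these data known. Gene positions and promoter windows (250 bases before to 50 after a start) came from RefSeq, where 18200 of the gene identifiers were found. The fits were tested on simulated data. Alternatives were other scalings and filters, DESeq2 1.42.0, limma 3.58.1, removal of each library's loess trend on gene length, the replicate number as a block, and leaving out each library.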

Additional observations from a re-analysis of the deposited data

How the results depend on the processing

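ALDH1A1, CRABP2 and RXRA were called higher, and DHRS9 and RDH10 lower, under all 17 alternatives. ALDH1A3, RARG, RARA and CYP26B1 changed call under some. All settings refit the same libraries on which the members were chosen, so these calls describe the processing and are no further support for the differences. With replicate numbers as a block, 4049 genes were called higher and 3890 lower, and 5 members were called lower, RARA and CYP26B1 added; 7 keratinocyte genes and 7 receptors or coregulators were then higher. The block together with removal of the length trend, chosen after seeing the data, gave 4232 higher, 4196 lower and 5 members lower. The numbers were not taken as pairing the libraries: deviations of same-numbered libraries correlated at 0.58, 0.61 and −0.18 over the tested genes. Leaving out each library gave 1551 to 2552 genes higher and 1475 to 2491 lower, with the lowest counts without sgVPS13C replicate 3 (1551 and 1475) and without vector replicate 3 (1582 and 1521); 3 to 4 members were then higher and 2 to 4 lower. With at least 10 CPM in 3 libraries, 6 genes of the 7 lists were lower, where fewer genes were tested. DESeq2 also called CYP26B1 lower. DHRS3, called under no setting, changed sign at 0.000829 without the filter, 0.00445 with at least 10 CPM, 0.023 with the length trend removed and 0.024 with the block as well, and lay between −0.27 and 0.19 when a library was left out. No scaling moved the median of all genes by over 0.1. The lowest members rest on few reads: ALDH1A1 had 17 to 30 counts in the vector libraries.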
